A study of Mus musculus with 16 samples.

Results

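The ventricle transcriptome of mice kept on laboratory chow was described from the 4 libraries titled Chow1 to Chow4, out of 16 in the study. They were chosen by their titles alone, and no measured value entered the choice. All 4 animals were male C57BL/6 mice that entered the study at 6 weeks of age were assigned to diets at random and then ate standard rodent chow (Prolab IsoPro RMH 3000) for 6 months. The other 12 libraries came from animals on the NIA, UW or modified NIA (mNIA) diets and were not compared with chow here. Each chow library is 1 animal, and its RNA came from the lower portion of the ventricles, so the tissue is a mixture of cell types from 1 part of the heart of 1 sex and strain.

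The adult ventricle is built mainly from cardiomyocytes, which hold a regular lattice of myosin and actin filaments, release and retake calcium at every beat, and carry a large mass of mitochondria. Fatty acids are their chief fuel, taken up through lipoprotein lipase, CD36 and fatty acid binding protein, burned in the mitochondria, and passed on through the citric acid cycle and the respiratory chain as ATP. Between the cardiomyocytes lie capillary endothelium, fibroblasts, pericytes, smooth muscle and resident macrophages, which are many in number but small in volume. In bulk RNA of this kind, fewer cells of a type and less RNA per cell cannot be told apart.

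The deposited file gave estimated counts for 17737 genes. The chow libraries held 5053791, 5953925, 4263778 and 5388756 counts in replicates 1 to 4, within a range of 2278223 to 63005361 over the whole study. At this depth 13155 genes reached at least 1 CPM (1 count per 1000000 counts of the library) in every chow animal, and 156 genes had no count in any of them. Levels of 1 gene across animals are given as CPM scaled by TMM, the trimmed mean of M values. Levels of different genes are compared per length, as counts per kilobase of the longest annotated transcript scaled to 1000000 per library, called the length-scaled level below. Genes of the mitochondrial genome numbered 0 in the file, so every mitochondrial gene named here is nuclear. Label checks matched male animals: Ddx3y, a Y-linked RNA helicase, had 74.9, 76.4, 62.5 and 68.8 CPM in replicates 1 to 4, and Xist, the RNA of the inactive X chromosome, which was chosen after its values were seen, had 3.57, 4.15, 7.87 and 5.06 CPM.

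Chow replicate 3 stood apart from the other 3 animals in many genes and lists, though not in all, and its values are given beside the results that it moved most. The square root of the common dispersion, which measures the spread between animals beyond counting error, was 0.254 over the 4 animals and 0.0893 without replicate 3. Means over the 4 animals are given with the SD (n = 4), and some also without replicate 3.

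A small number of genes took much of the sequencing. The 10 genes with the most counts held 15.2 ± 0.708% of the counts of a library (SD, n = 4), the first 100 genes held 32.7 ± 1.16%, and 434 genes held the first 50%. By library, the first 50% of counts lay in 372, 409, 480 and 421 genes in replicates 1 to 4. Replicate 3 needed the most genes for this mark, but its 10 leading genes held 15.4%, against 16.1%, 14.7% and 14.6% in replicates 1, 2 and 4. The 103 genes with a mean of at least 1000 CPM were 0.581% of the genes and 33.0% of the counts, while the 4643 genes of 1 to 10 CPM held 2.08% of them. Protein-coding genes held 96.5 ± 0.621% of the counts and long non-coding RNAs 1.40 ± 0.456%. Long non-coding RNAs were at 2.05% in replicate 3, against 1.08% to 1.36% in the others. Of the first 100 genes, 75 belonged to the functional lists described below, and of the first 25, 21 did. Those lists together hold 804 of the 17737 genes in the file. They were chosen with earlier results of these data known, so this overlap is no independent result.

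**Figure D1:**
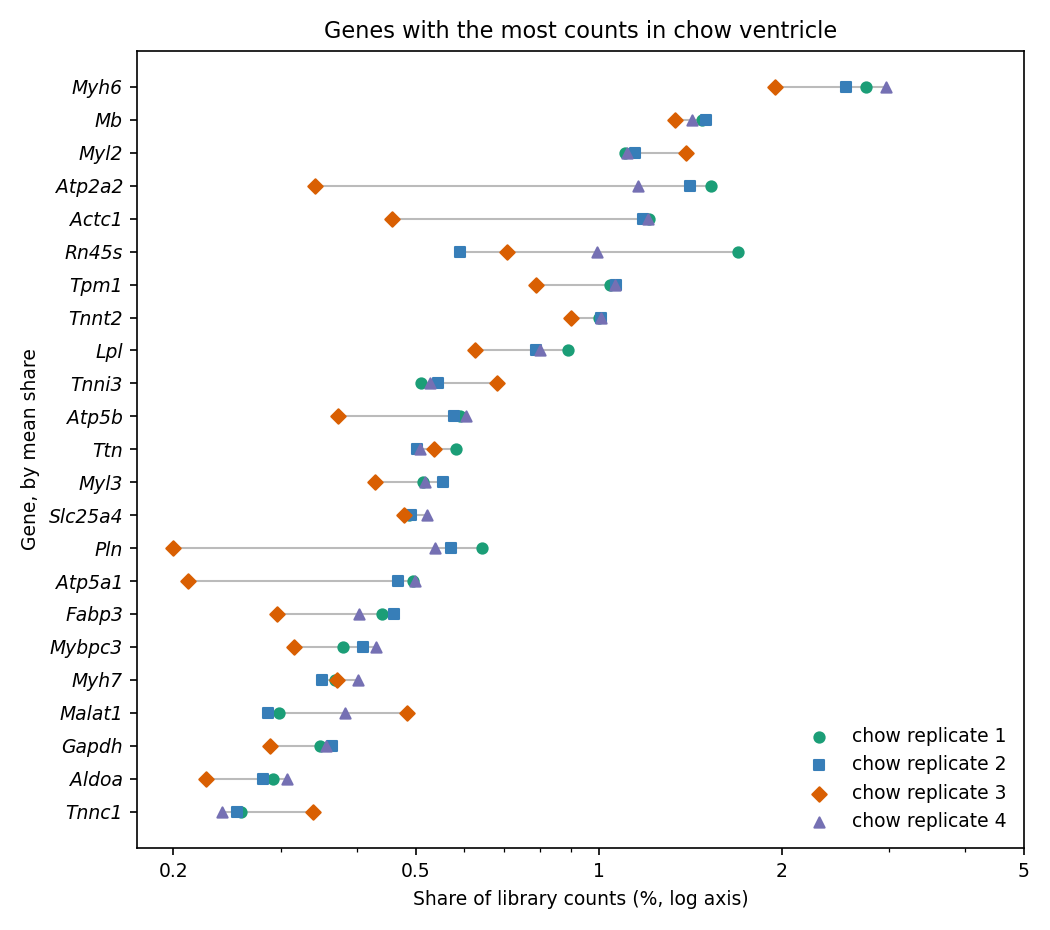
Share of library counts (%, log axis) of the genes with the most counts in chow ventricle, with 1 point per animal and a grey line from the lowest to the highest animal. Of the first 25 genes, 23 are shown. The point of chow replicate 3 lies far below the others for Atp2a2, Actc1, Pln and Atp5a1 and above them for Myl2, Tnni3 and Tnnc1.

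Genes whose annotated transcripts contain long runs of identical A or T bases were counted together, and how far such runs add reads to a gene was not tested. All 305 genes with a run of at least 25 identical A or T bases together held 12.0% of the counts in replicate 3, against 6.49%, 6.42% and 5.84% in replicates 1, 2 and 4. Among them, chosen after their values were seen, were Slx1b at 2392 CPM in replicate 3 against 1369 to 1559 CPM in the others, and Rorb at 2470 CPM against 1275 to 1488 CPM. Without these 305 genes the 10 leading genes held 12.6% of the counts, in place of 15.2%.

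Genes of contraction and energy supply filled most of the first places by share, together with Rn45s, the precursor of the ribosomal RNAs (chromosome 17, 39842997 to 39848829). Rn45s had 17964, 6087, 6412 and 10047 CPM in replicates 1 to 4, the widest spread of the first 25 genes among replicates 1, 2 and 4. Ribosomal RNA carries no poly-A tail and is mostly removed by poly-A selection. Malat1, a nuclear long non-coding RNA, had 3167, 2945, 4386 and 3869 CPM, and was higher in replicates 3 and 4 than in replicates 1 and 2. Neat1, the RNA that builds nuclear paraspeckles and was chosen after its values were seen, had 1171, 1075, 3337 and 1972 CPM in the same order of animals.

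The thick filament, the myosin part of the contractile lattice, held the largest share of counts of the 32 functional lists. Its 14 genes took 5.39 ± 0.502% of the counts, and 4.69% in replicate 3, against 5.46% to 5.88% in the others. On the length-scaled level the order was the other way, with 6.27 ± 0.667% for the thin filament and 5.40 ± 0.211% for the thick filament. The counts of Myh6, the fast alpha myosin heavy chain (chromosome 14, 54941921 to 54966607), came to 29176, 26259, 17651 and 29938 CPM in replicates 1 to 4. Myh7, the slow beta heavy chain that lies beside it (chromosome 14, 54970686 to 54994626), had 3905, 3612, 3368 and 4055 CPM. By CPM both genes were lowest in replicate 3, but Myh6 by more. By share of counts Myh7 was not lowest there, at 0.371%, against 0.351% to 0.402% in the others. The length-scaled ratio of Myh6 to Myh7 was 7.62, 7.41, 5.34 and 7.52, with a mean of 6.97 ± 1.09. Alpha myosin thus exceeded beta myosin in all 4 animals.

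Each of these myosin genes carries a microRNA in an intron, and the pair is shown because the mature forms share their seed, the bases 2 to 8 that pair with targets, here in capitals. Sequences are those of RefSeq on GRCm38.p6, 5′ to 3′, with miR-208a-3p inside Myh6 (chr14:54949072-54949093, minus strand) and miR-208b-3p inside Myh7 (chr14:54975710-54975731, minus strand).
miR-208a-3p: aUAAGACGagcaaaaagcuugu
miR-208b-3p: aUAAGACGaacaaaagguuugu
Poly-A libraries do not measure mature microRNAs, and reads at these loci cannot be told apart from the primary transcripts of the host genes. Mir208b had 6.51, 5.88, 13.6 and 11.2 CPM in replicates 1 to 4, and Mir208a had 2.52, 0.173, 1.06 and 2.44 CPM, from 1 to 13 counts a library. Both loci were chosen after their values were seen.

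Per length, the light chains led the thick filament. Myl2, the ventricular regulatory light chain (chromosome 5, 122100951 to 122106854), had a length-scaled level of 28514 ± 2081 and 11708, 11810, 12635 and 11258 CPM in replicates 1 to 4. Myl3, the ventricular essential light chain, followed at 11524 ± 1554, then Myh6 at 8970 ± 1823 and Mybpc3, myosin binding protein C, at 1979. Atrial light chains were near 0: Myl7 had 0.42, 0.346, 0.638 and 0 CPM, from 0 to 3 counts a library, where a count of 0 allows up to 3 counts, or 0.504 to 0.704 CPM at these depths. Myl4 was also low, and Myl3 exceeded it by a length-scaled ratio of 2150 ± 683.

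The thin filament held 4.03 ± 0.481% of the counts in 17 genes, with 3.31% in replicate 3, against 4.26% to 4.29% in the others. By length-scaled level its order was Tnnt2, cardiac troponin T, at 17473 ± 1557, Actc1, cardiac alpha actin, at 14853 ± 5740, Tnni3, cardiac troponin I, at 13216 ± 1257, Tnnc1, cardiac troponin C, at 8051 ± 988, and Tpm1, alpha tropomyosin, at 7358 ± 1241. Neighbours in this order differed by less than the SD of one of them, except Tnni3 and Tnnc1. Actc1 (chromosome 2, 114047284 to 114052875) had 12818, 12176, 4142 and 12160 CPM in replicates 1 to 4, and replicate 3 lay far below the others. Tnni3 had 5414, 5599, 6178 and 5340 CPM, and Tnnc1 had 2735, 2617, 3076 and 2424 CPM, both highest in replicate 3. Acta1, the skeletal alpha actin whose coding sequence is nearly that of Actc1, had 220, 202, 244 and 198 CPM. The length-scaled ratio of Actc1 to Acta1 was 57.3, 59.2, 16.7 and 60.3, and reads that match both actins could have been split between them by the counting.

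The promoters of the first thick and thin filament genes by share are shown, since both genes lead their lists, with matches to 5 motifs in capitals. Each is 250 bases before to 50 after the RefSeq start site on GRCm38.p6, 5′ to 3′ on the minus strand, Myh6 at chr14:54966558-54966857 and Actc1 at chr2:114052826-114053125.
Myh6: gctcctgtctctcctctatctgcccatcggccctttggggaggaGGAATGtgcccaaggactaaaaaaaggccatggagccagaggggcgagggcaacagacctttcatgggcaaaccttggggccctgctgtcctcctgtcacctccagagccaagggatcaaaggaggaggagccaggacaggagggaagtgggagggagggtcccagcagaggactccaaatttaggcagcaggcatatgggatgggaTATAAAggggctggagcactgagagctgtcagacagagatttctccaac
Actc1: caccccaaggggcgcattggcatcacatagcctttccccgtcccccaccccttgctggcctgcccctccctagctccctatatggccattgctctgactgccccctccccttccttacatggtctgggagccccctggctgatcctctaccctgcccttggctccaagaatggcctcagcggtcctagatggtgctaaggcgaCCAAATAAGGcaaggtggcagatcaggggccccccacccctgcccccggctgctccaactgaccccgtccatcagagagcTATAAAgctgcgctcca
The capitals in Myh6 mark CATTCC, the binding word of TEAD factors, read on the other strand at positions -206 to -201, and TATAAA at positions 2 to 7. Those in Actc1 mark a CArG box, the binding site of serum response factor, at positions -47 to -38, and TATAAA at positions 34 to 39. The TATA box TATAAA, the TEAD word CATTCC and the nuclear receptor word AAGGTCA were searched by their letters and CArG and MEF2 boxes by name, all on both strands and with overlaps between motifs allowed. CATTCC was found in 4 of 13 thick filament and 6 of 13 thin filament promoters, and in 14.6% of 27025 promoters of the same length. A CArG box was found in 3 of 13 and 2 of 13 of them, and in 1.57% of all. TATAAA was in 2 of 13 and 3 of 13, and in 14.2% of all, and a MEF2 box in 1 of 13 and 0 of 13, and in 0.57% of all. AAGGTCA was in 1 of 24 promoters of citric acid cycle genes and 1 of 22 of fatty acid oxidation genes, and in 4.66% of all. Of 10960 promoters of genes with a mean of at least 1 CPM, 12.2% held CATTCC, 7.59% TATAAA and 3.08% AAGGTCA. A CArG box was in 1.38% of these and a MEF2 box in 0.56%. A match is a word in the sequence and no evidence of binding.

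Titin, the Z-disc and the costamere, which anchor the filaments, held 2.80 ± 0.342% of the counts in 36 genes, and 2.29% in replicate 3, against 2.92% or more in each of the others. The small Z-disc protein gene Tcap, telethonin, led per length at 4506 ± 161, before Cryab, a small heat shock protein that guards desmin, at 3227 ± 148, Csrp3, muscle LIM protein, at 2572 and Fhl2 at 2162. Tcap lay between 1962 and 2038 CPM in all 4 animals, so replicate 3 was not apart for it. Ttn, which encodes the giant spring protein titin, was 13th by share at 0.532% of the counts and 1170th per length, at 107. Share of counts thus favours long transcripts.

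Calcium cycling genes held 2.52 ± 0.879% of the counts, with 1.24% in replicate 3, against 2.63% to 3.18% in the others. Atp2a2, the SERCA2 pump that returns calcium to the sarcoplasmic reticulum (chromosome 5, 122453513 to 122502225), had 16237, 14564, 3096 and 11728 CPM in replicates 1 to 4. Pln, phospholamban, the inhibitor of that pump, had 6820, 5896, 1811 and 5446 CPM. Both were far lower in replicate 3, yet the length-scaled ratio of pump to inhibitor moved less, at 0.889 in replicate 3, against 1.12 to 1.29 in the others. Of the remaining members, S100a1, a calcium sensor of the pump, had a length-scaled level of 1571, Hrc, a calcium buffer of the reticulum, 1379 and Casq2, cardiac calsequestrin, 769. The skeletal pump Atp2a1 stood at a mean of about 1 CPM.

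Channels, pumps and junction genes held 0.742 ± 0.174% of the counts in 38 genes, with 0.484% in replicate 3, against 0.793% to 0.855% in the others. Fxyd1, phospholemman, the regulator of the sodium pump, led per length at 916 ± 33.2, and the gap junction gene Gja1 stood at 327. The desmosome gene Dsp had 1555, 1586, 312 and 1340 CPM in replicates 1 to 4, one of the larger shortfalls of replicate 3. Fxyd1, in contrast, had nearly the same level in all 4 animals, between 261 and 272 CPM.

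Genes that store oxygen and move phosphate energy held 2.84 ± 0.242% of the counts. Mb, myoglobin (chromosome 15, 77015487 to 77050668), had 15664, 15476, 12128 and 14397 CPM in replicates 1 to 4 and a length-scaled level of 27832 ± 2321. Ckmt2, the mitochondrial creatine kinase, had 2860, 2805, 2230 and 3031 CPM. Per length it stood above the cytosolic muscle form Ckm, at 3920 ± 443 against 1567, and Slc25a4, the muscle carrier of ADP and ATP, stood at 5499.

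The 85 nuclear genes of the respiratory chain and ATP synthase held 5.67 ± 0.127% of the counts, and replicate 3 was close to the others in sum, at 5.48% against 5.70% to 5.75%. The sums of single complexes differed more. Complex IV was at 1.18% in replicate 3, against 0.904% to 0.929% in the others, and complex I at 1.64% against 1.46% to 1.48%. ATP synthase was at 1.83% in replicate 3, against 2.20% to 2.25%, and complex II, which also works in the citric acid cycle, at 0.163% against 0.336% to 0.345%.

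Members of ATP synthase and of complex I did not all move in the same direction. Of 18 ATP synthase genes, 8 were lowest and 9 highest in replicate 3. Of 37 complex I genes, 14 were lowest and 20 highest there. Over all genes, 38.6% were lowest and 43.8% highest in replicate 3. Such a split was thus common among genes at large and does not set ATP synthase or complex I apart. All 4 complex II genes, in contrast, were lowest in replicate 3. Cox4i1, a core nuclear subunit of cytochrome c oxidase, had 2052, 1971, 2192 and 1947 CPM in replicates 1 to 4. Cox6a2, the heart and muscle form of another subunit, had 1160, 1290, 1479 and 1135 CPM and exceeded the liver form Cox6a1 by a length-scaled ratio of 15.0 ± 0.744. Ndufa4 had 822, 829, 988 and 788 CPM. These 3 were highest in replicate 3. Sdha, the flavoprotein of complex II, had 1721, 1603, 405 and 1540 CPM, and the catalytic ATP synthase subunits Atp5b and Atp5a1 were low in the same animal. Atp5b had 6278, 5960, 3380 and 6117 CPM, and Atp5a1 had 5251, 4816, 1916 and 5039 CPM.

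Citric acid cycle and pyruvate oxidation genes held 2.04 ± 0.642% of the counts over 27 genes, and 2.36 ± 0.0199% without replicate 3. Idh2, the mitochondrial NADP isocitrate dehydrogenase, led per length at 2784 ± 597, with 2476, 2584, 1492 and 2580 CPM in replicates 1 to 4. The malate dehydrogenases Mdh1 and Mdh2 followed Idh2 per length, at 1951 and 1875, which differed by less than their SD. The whole list was at 1.08% in replicate 3, against 2.35% to 2.39% in the others.

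Fatty acid oxidation genes held 1.75 ± 0.524% of the counts over 28 genes, and 2.01 ± 0.0419% without replicate 3. Per length the first were Etfb, which passes electrons on from the dehydrogenases, at 1912, and Hadhb, the thiolase subunit of the trifunctional protein, at 1867 ± 864. Hadhb had 2432, 2240, 539 and 2024 CPM in replicates 1 to 4, and replicate 3 lay far below the others. Genes of uptake and storage held 1.70 ± 0.150%. Among them Fabp3, the fatty acid carrier of the cardiomyocyte, had 4667, 4744, 2680 and 4083 CPM, Lpl, lipoprotein lipase, had 9444, 8130, 5689 and 8103 CPM, and Cd36, the membrane translocase, had 2226, 2146, 1254 and 1985 CPM.

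Glucose uptake, glycolysis and glycogen genes together held 1.86 ± 0.319% of the counts, or 2.02 ± 0.0314% without replicate 3. That list includes uptake and storage, whereas the 1.75% of fatty acid oxidation leaves out the 1.70% of fatty acid uptake and storage. Gapdh at 5122, Aldoa at 3830 and Ldhb at 2613 led per length. The heart form of lactate dehydrogenase, Ldhb, exceeded Ldha by a length-scaled ratio of 3.23 ± 0.184, and the insulin-sensitive transporter Slc2a4 exceeded Slc2a1 by 39.9 ± 6.00.

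**Figure D2:**
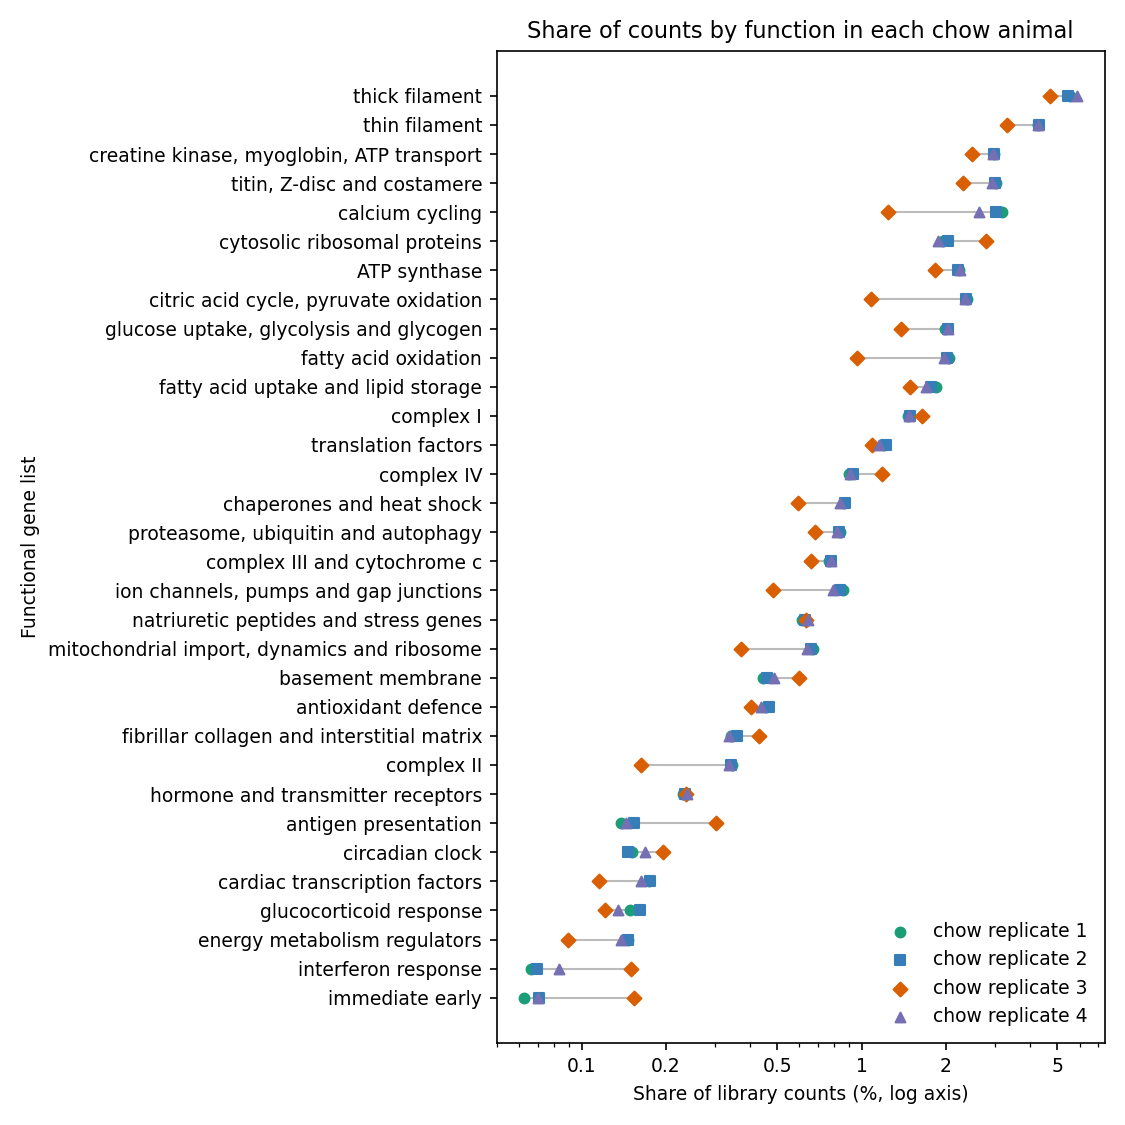
Share of library counts (%, log axis) of each of the 32 functional gene lists, with 1 point per chow animal and a grey line from the lowest to the highest. Replicates 1, 2 and 4 nearly coincide for most lists, and replicate 3 lies below them for the citric acid cycle (1.08%) and fatty acid oxidation (0.962%) and above them for antigen presentation (0.302%) and immediate early genes (0.153%).

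Protein synthesis and upkeep took a moderate share. The 80 cytosolic ribosomal protein genes held 2.16 ± 0.421% of the counts, and 2.78% in replicate 3, against 1.87% to 2.03% in the others, with Rpl23a at 1410 and Rps15 at 1403 among the highest per length. Many ribosomal protein genes have processed copies, so the share between a gene and its copies is uncertain. Rps3 was one of the 12 least variable genes with a mean of at least 30 CPM, at 292, 298, 299 and 293 CPM. The elongation factor Eef1a2, the form of muscle and nerve, had 1722, 1711, 611 and 1583 CPM in replicates 1 to 4, and the widely expressed Eef1a1 had 1227, 1218, 1704 and 1065 CPM. Their order thus changed in replicate 3, with a length-scaled ratio of Eef1a2 to Eef1a1 of 0.309, against 1.21 to 1.28 in the others.

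Chaperone genes held 0.791 ± 0.133% of the counts, with 0.594% in replicate 3, against 0.834% to 0.875% in the others, led per length by Hspa8, the constitutive HSP70, at 1540, and Hspb6 at 1458. Proteasome, ubiquitin and autophagy genes held 0.791 ± 0.072%, led by the lysosomal protease Ctsd at 1036. Antioxidant genes held 0.441 ± 0.0282%, led by Gpx4, which reduces lipid peroxides, at 1284, and Sod1 at 1120.

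Matrix genes were a minor part of the chow ventricle. Fibrillar collagens and interstitial matrix held 0.367 ± 0.044% of the counts in 36 genes, and the basement membrane 0.498 ± 0.0689% in 17 genes. Decorin, a small proteoglycan that binds collagen fibrils, was first per length, and Dcn had 563, 566, 513 and 548 CPM in replicates 1 to 4. Sparc, a matricellular collagen binder, had 464, 456, 775 and 445 CPM. Of the collagen genes, both chosen after their values were seen, Col3a1 of type III had 277, 311, 268 and 229 CPM, and Col1a1 of type I had 133, 154, 179 and 131 CPM. Both collagens varied between animals without setting replicate 3 apart, and Sparc was highest there.

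Of the genes of cardiac stress, the natriuretic peptides were present at low levels beside the adult contractile genes. Myh7, given above, belongs to the same list and had 3735 CPM on average. Nppa, atrial natriuretic peptide, had 90.2, 141, 242 and 128 CPM in replicates 1 to 4, and Nppb, brain natriuretic peptide, had 110, 155, 179 and 129 CPM. Both were highest in replicate 3 and lowest in replicate 1. Their length-scaled levels, 374 ± 173 and 394 ± 92.1, differed by less than the SD, and Ankrd1, a titin-bound stress gene, was at 1155.

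Regulatory genes held small shares. The 21 cardiac transcription factor genes in the file held 0.157 ± 0.0284% of the counts, led per length by Hopx at 426, Mef2a at 83.9 and Mef2d at 75.6. Gata4, a cardiac zinc finger factor, had 142, 143, 56.6 and 127 CPM in replicates 1 to 4. Among regulators of energy metabolism, Ppara, the nuclear receptor for fatty acids, had 108, 111, 49.8 and 91.5 CPM, and its coactivator Ppargc1a, chosen after its values were seen, had 111, 98.2, 42.3 and 93.5 CPM. All 3 were lowest in replicate 3. Perm1, a muscle regulator of mitochondrial genes, led that list per length at 188.

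Clock genes held 0.166 ± 0.022% of the counts. The output and repressor genes Bhlhe41, Dbp and Nr1d1 had length-scaled levels of 181 ± 64.8, 166 ± 23.4 and 143 ± 15.2, which differed by less than the SD of Bhlhe41. Arntl, the positive arm of the clock, was at 4.5 in the same animals and was chosen after its value was seen. Receptors and their transducers held 0.234 ± 0.00314% of the counts, but the even sum did not hold for its members. Of 21 genes at a mean of 1 CPM or more, 14 were lowest in replicate 3, against 38.6% of all genes. Their median log2 difference from the others was -0.41, against 0.07 over all genes. The stimulatory G protein gene Gnas led the receptor list at 660, and the beta-1 adrenergic receptor gene Adrb1, chosen after its value was seen, was at 12.2.

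By share of counts, cardiomyocyte markers far exceeded the other marker lists. The 14 cardiomyocyte markers held 10.3 ± 1.08% of the counts, with 8.69% in replicate 3, against 10.7% or more in each of the others. Endothelial markers held 0.447 ± 0.182% in 20 genes, with 0.718% in replicate 3, against 0.333% to 0.386%. Fibroblast markers held 0.313 ± 0.0164% (0.332% in replicate 3), pericyte and smooth muscle markers 0.346 ± 0.0361% (0.294%), and macrophage and monocyte markers 0.0446 ± 0.00573% (0.0517%). The lower pericyte and smooth muscle sum in replicate 3 did not hold for most members. Of these 15 genes, 8 were highest and 3 lowest there, against 43.8% and 38.6% of all genes. Their median log2 difference from the mean of the others was 0.43. Atrial and conduction markers held 0.0767 ± 0.0102%, with 11 of 12 genes at a mean of 1 CPM or more, as were 14073 of all 17737 genes. Most of that sum was Clu, clusterin, at a mean of 503 CPM and Nppa at 150 CPM, while the atrial light chain Myl7 was near 0, as given above. Some markers are shared with cardiomyocytes, among them Des in the pericyte list and Lpl in the adipocyte list, so these sums are no cell fractions.

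Some markers of the other cell types were as follows. Fabp4, a fatty acid binding protein of capillary endothelium, had 882, 897, 1852 and 784 CPM in replicates 1 to 4. Cldn5, a tight junction gene of endothelium, was no leading marker, at a length-scaled level of 51.7. It had 18.7, 17.3, 80.4 and 18.2 CPM. Its log2 difference of 2.13 between replicate 3 and the mean of the others was the largest of the 20 endothelial markers (median 0.83). Per length, Gsn, gelsolin, led the fibroblast list at 1000, Rgs5 stood at 439 among pericyte markers and Lyz2 at 186 among macrophage markers. Of 18 listed lymphocyte markers, 13 were in the file and 8 had a mean of at least 1 CPM, the highest at 4.2 CPM. Of all 17737 genes, 14073 had such a mean. Markers of adipocytes that the heart does not share were near 0, with Cfd at 0.201 CPM on average, and 0 of the 3 lung and airway markers in the file reached a mean of 1 CPM.

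Blood markers varied between all 4 animals. Erythrocyte and platelet markers held 0.349%, 0.468%, 1.05% and 0.658% in replicates 1 to 4. Hba-a1, an alpha globin (chromosome 11, 32283672 to 32297303), had 1016, 1315, 2612 and 1867 CPM. The globin genes are near-identical pairs, and how the counting divided their reads is uncertain.

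Replicates 1, 2 and 4 agreed closely and replicate 3 did not. Over 13155 genes, the Spearman correlation of log2 CPM was 0.990 for replicates 1 and 2, 0.985 for 1 and 4, and 0.987 for 2 and 4. With replicate 3 it was 0.909, 0.914 and 0.936. These are correlations across genes, which are not independent replicates. The median absolute log2 distance from the median of the other 3 animals was 0.49 in replicate 3, against 0.19, 0.17 and 0.16 in replicates 1, 2 and 4.

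Of 14073 genes with a mean of at least 1 CPM, 4907 (34.9%) had more than 2 times the CPM in the highest animal than in the lowest. Among replicates 1, 2 and 4 alone the count was 1281 (9.1%). Replicate 3 was the lowest of the 4 animals for 38.6% of the genes and the highest for 43.8%, so it was at 1 end for most of them. The shares lowest and highest were 26.6% and 23.1% in replicate 1, 20% and 18.3% in replicate 2, and 14.9% and 14.7% in replicate 4. The median SD of log2 CPM was 0.38 for genes of at least 1000 CPM and 0.06 without replicate 3, and for genes of 1 to 10 CPM it was 0.42 and 0.29. Leaving out replicate 3 thus narrowed the spread most for the abundant genes, and leaving out any other animal did not narrow it (dispersion root 0.277, 0.285 and 0.301).

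**Figure D3:**
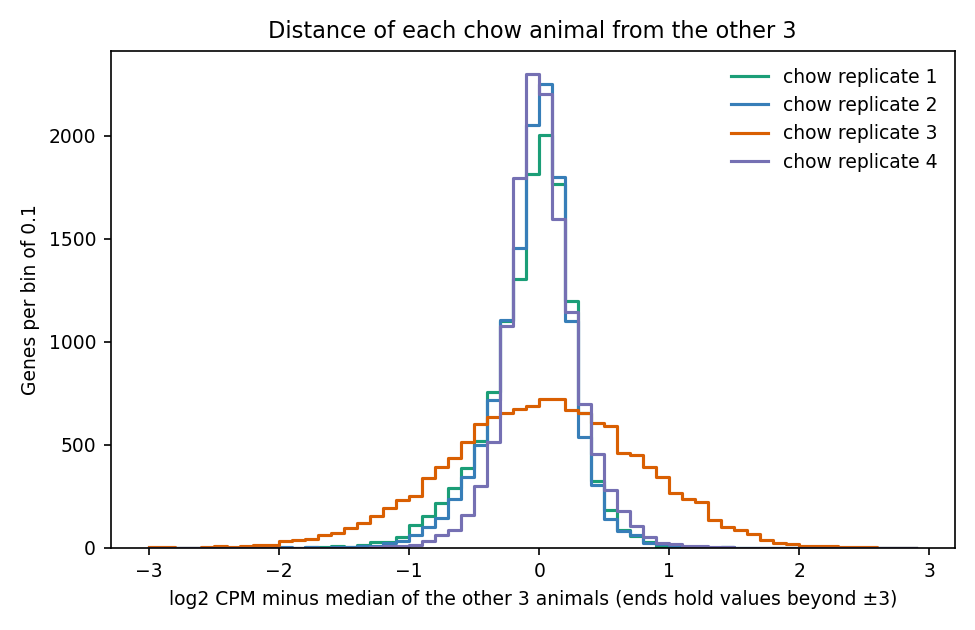
Number of genes by the difference between an animal's log2 CPM and the median of the other 3, in bins of 0.1, for genes at 1 CPM or more in all 4 animals. The curves of chow replicates 1, 2 and 4 are narrow and nearly coincide, and that of replicate 3 is broad (median absolute difference 0.49).

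Several functions were lower in replicate 3. All 27 citric acid cycle and pyruvate oxidation genes were lowest in replicate 3, with a median difference from the mean of the other 3 of -1.43 on the log2 scale. Against this, 38.6% of all genes were lowest there, and the median over all genes was 0.07. Likewise 26 of 28 fatty acid oxidation genes (median -1.19), 4 of 4 complex II genes (-1.41), 30 of 34 titin, Z-disc and costamere genes (-0.90), 28 of 38 channel, pump and junction genes (-0.86) and 17 of 20 cardiac transcription factor genes (-0.71) were lowest there. Of the 12 most variable genes, Prkaa2 and Nnt were of this kind. They are Prkaa2, a catalytic subunit of the energy sensor AMPK, with 24.7 CPM in replicate 3 against 192, 175 and 130 CPM in replicates 1, 2 and 4, and Nnt, the mitochondrial transhydrogenase, with 195 CPM against 1203, 1040 and 982 CPM.

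Other lists were highest in replicate 3, where 43.8% of all genes were. They included 20 of 20 endothelial markers (median 0.83), 36 of 39 interferon response genes (0.91), 19 of 22 antigen presentation genes (0.89), 19 of 21 immediate early genes (1.26), 68 of 80 ribosomal protein genes (0.41) and 14 of 15 erythrocyte and platelet markers (0.94). B2m, the light chain of MHC class I, had 620 CPM in replicate 3, against 303, 318 and 274 CPM in replicates 1, 2 and 4. Egr1, an immediate early transcription factor, had 199 CPM, against 26.7, 49.6 and 56.8 CPM. Fos, another one and chosen after its values were seen, had 35.9 CPM, against 2.52, 6.05 and 7.31 CPM. In 13 of 47 lists with at least 3 members at 1 CPM an animal lay apart from the rest by Dixon's ratio, and it was replicate 3 in all 13.

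**Figure D4:**
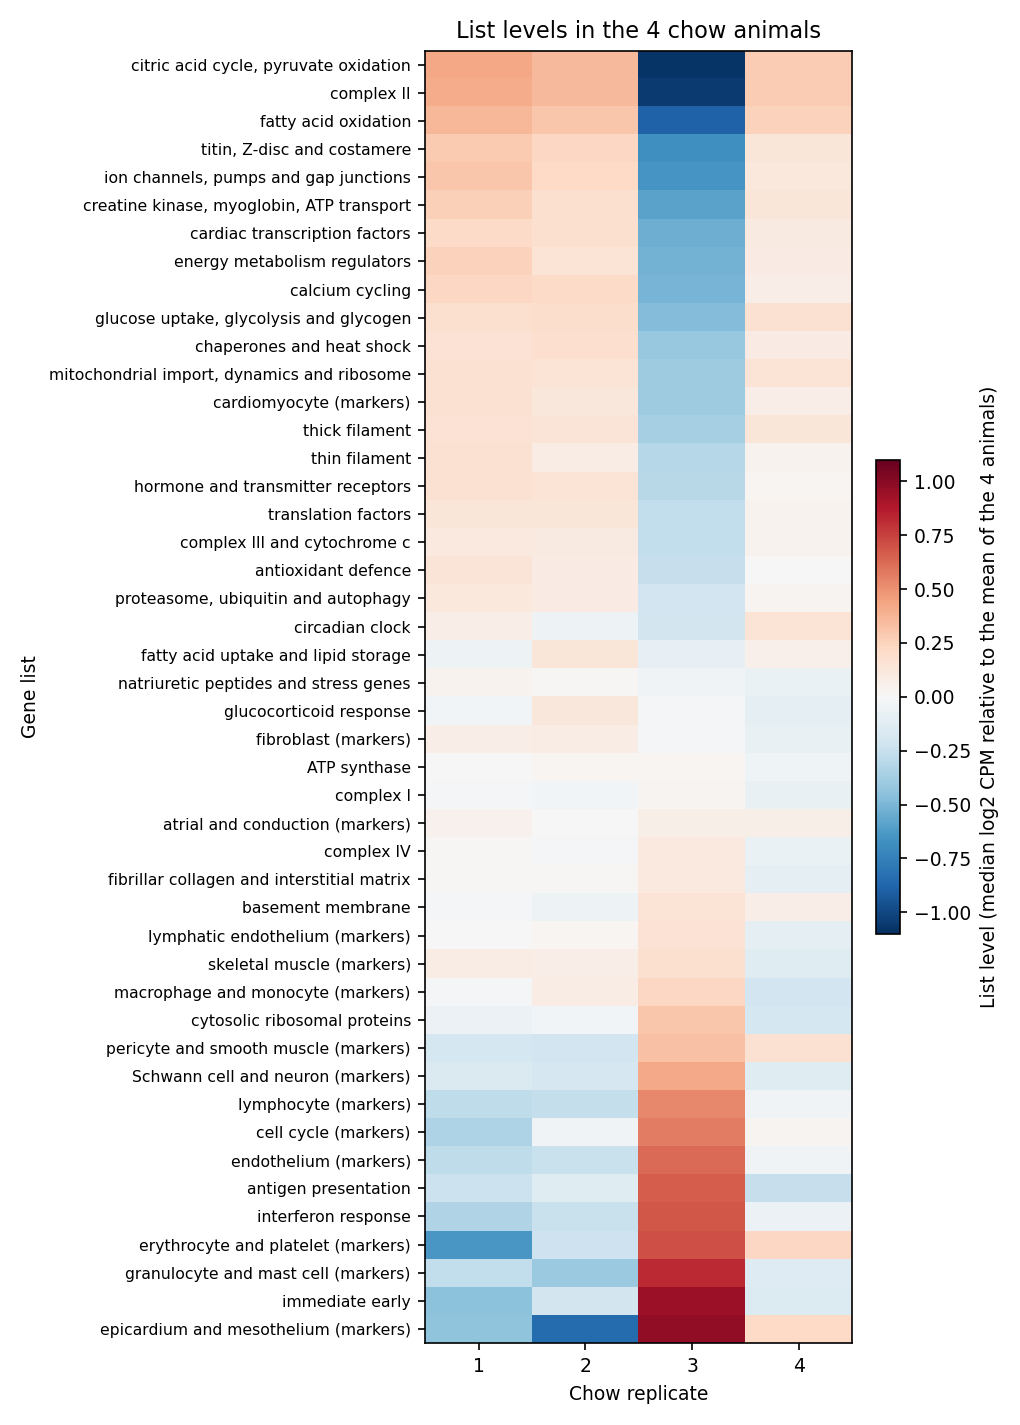
Level of each gene list in the 4 chow animals, as the median over members of log2 CPM relative to the mean of the 4 animals, ordered by chow replicate 3 and coloured from blue (lower) to red (higher). The column of replicate 3 runs from -1.08 for the citric acid cycle to 0.98 for epicardial markers, while replicates 1, 2 and 4 are pale for most lists.

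These directions were computed under 3 scalings. By library totals in place of TMM the median of all genes in replicate 3 moved to 0.25, and 4 lists with medians near 0 (fatty acid uptake and lipid storage, natriuretic peptides and stress genes, glucocorticoid response, fibroblast markers) changed sign. The lists named as lowest or highest above kept their sign.

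Transcript length moved with the difference of replicate 3 inside several functions. Among the 84 respiratory chain and ATP synthase genes, Spearman's rho between transcript length and the log2 difference of replicate 3 from the mean of the others was -0.56, with a median of 0.27 for the 48 genes under 1000 bases and -1.35 for the 9 of 2000 to 4000 bases. The corresponding rho was -0.50 for 80 ribosomal protein genes, -0.74 for 20 endothelial markers, -0.31 for 60 sarcomere genes and -0.31 for the 55 genes of the citric acid cycle and fatty acid oxidation. Over 13883 genes it was -0.06. Genes within a list share a library and are not independent, so these are descriptions. For endothelial markers the median difference was 1.11 for the 2 genes under 1000 bases and 1.44 for the 4 of 1000 to 2000 bases. It was 0.73 for the 7 of 2000 to 4000 bases and 0.45 for the 7 of 4000 bases or more. The share of length in the differences of replicate 3 was not tested.

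**Figure D5:**
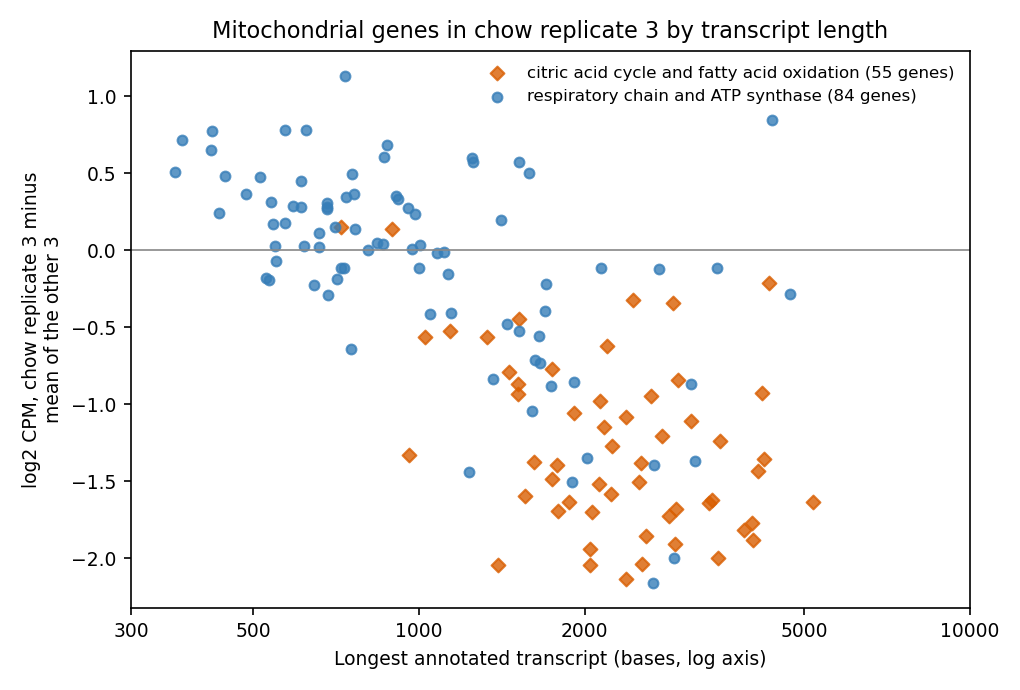
log2 CPM of chow replicate 3 minus the mean of the other 3 animals against the longest annotated transcript (bases, log axis), for 84 respiratory chain and ATP synthase genes and 55 genes of the citric acid cycle and fatty acid oxidation. Short respiratory chain genes lie mostly above 0 (median 0.27 under 1000 bases), and most genes over 2000 bases of either kind lie below it.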

How the data were processed

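RNA from 4 chow ventricles was read as stranded, poly-A enriched libraries of 75-base single reads, from RNA with an integrity number above 7.0, per the labels' protocols. The authors deposited estimated counts (expected counts) per gene, with no scaling, of which 20.1% to 22.3% were not whole. They were rounded. The submitters' processing notes name BWA, DESeq2 and mm10; the counting tool and gene models are not given in the sources used here. Groups follow the titles.

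Symbols and chromosomes matched GENCODE vM21 for 17434 genes (98.3%), which gave lengths (the longest protein-coding transcript, at least 300 bases) and A or T runs (the longest in any such transcript). Starts equalled those of 66 of 66 RefSeq hairpins and stops lay 1 base past their ends, so 1 was subtracted from stops.

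CPM were scaled by TMM in edgeR 4.0.16 (R 4.3.3), with log2 of CPM plus 0.5. The common dispersion came from an intercept-only model after filterByExpr, and the procedure was tested on simulated data. DESeq2 1.42.0 gave an alternative dispersion. The share of a single list had 95% Wilson intervals of at most ± 0.0272 percentage points, which cover counting error only. No contrast between groups and no p-value was computed. A list level is the median over members with a mean of at least 1 CPM. Dixon's ratio above its 95% critical value for 4 samples marked an animal apart.

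Text genes follow a rule: the 25 with the highest share, the 5 (functional) or 4 (marker) highest per length of each list, the 12 most and 12 least variable and the 5 highest and lowest of each animal at 30 CPM or more, and known cardiac alternatives. The members, lists and rule were chosen with earlier results of these data known. The median transcript length had been planned as the main length, but annotated fragments made it too short for Myh6, so the longest was used. Promoter shares used the first RefSeq entry of a gene. Chow alone was described, so the other 12 libraries entered no value except the range of totals. Some genes the rule names are not reported here.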

Additional observations from a re-analysis of the deposited data

Results flagged for a closer look

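An animal was taken to lie apart where its gap to the nearest other animal was a larger part of the whole range of the 4 than Dixon's 95% critical value, a limit that about 1 in 20 groups pass by chance. Chow replicate 3 was the animal apart in every list and named gene below. In list level, it was low in 11 of 47 lists, namely thick filament at -0.37, titin, Z-disc and costamere at -0.67, creatine kinase, myoglobin and ATP transport at -0.59, complex II at -1.05, citric acid cycle and pyruvate oxidation at -1.08, fatty acid oxidation at -0.89, glucose uptake, glycolysis and glycogen at -0.48, chaperones and heat shock at -0.42, mitochondrial import, dynamics and ribosome at -0.39, cardiac transcription factors at -0.54 and cardiomyocyte at -0.39. It was high in 2 lists, antigen presentation at 0.67 and Schwann cell and neuron at 0.42.

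In share of counts, replicate 3 lay apart in 22 of 48 lists. The shares were 3.31% for thin filament, 2.29% for titin, Z-disc and costamere, 0.484% for ion channels, pumps and gap junctions, 2.48% for creatine kinase, myoglobin and ATP transport, 1.64% for complex I, 0.163% for complex II, 0.658% for complex III and cytochrome c, 1.18% for complex IV, 1.83% for ATP synthase, 1.08% for citric acid cycle and pyruvate oxidation, 0.962% for fatty acid oxidation, 1.38% for glucose uptake, glycolysis and glycogen, 2.78% for cytosolic ribosomal proteins, 0.594% for chaperones and heat shock, 0.684% for proteasome, ubiquitin and autophagy, 0.371% for mitochondrial import, dynamics and ribosome, 0.0891% for energy metabolism regulators, 0.153% for immediate early, 0.302% for antigen presentation, 8.69% for cardiomyocyte, 0.718% for endothelium and 0.0129% for Schwann cell and neuron.

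Replicate 3 was the animal apart in CPM for 11.2% of the 14073 genes with a mean of at least 1 CPM, against 0.476%, 0.426% and 0.412% for replicates 1, 2 and 4. Of the 50 genes given animal by animal, 11 were among them. Those 50 were chosen in part for their spread or after their values were seen, so their count is no measure of how common this is. The values in replicate 3 were 4142 for Actc1, 1492 for Idh2, 405 for Sdha, 3380 for Atp5b, 1916 for Atp5a1, 1852 for Fabp4, 80.4 for Cldn5, 35.9 for Fos, 620 for B2m, 775 for Sparc and 611 for Eef1a2.

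Replicate 3 also lay apart in the share of counts on genes with a run of at least 25 identical A or T bases (12.0%) and in its median absolute log2 distance from the other animals (0.49). No label gives a batch, a sampling position or an integrity value per animal, so the source of its difference was not tested.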

How the results depend on the processing

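Of single lists, 23 of 32 shares moved under length scaling, and the range of list levels moved in 41 of 47 lists without replicate 3 and in 18 under library totals. The genes detected, the genes holding the first 50% of counts, the shares and the dispersion kept within 1.5 times or 1 SD of the values given, except as follows. With the 10 leading genes left out, 734 genes held the first 50% of counts (434 with them). Length scaling put 19.8% in the 10 leading genes and 51.0% in the functional lists, in place of 15.2% and 39.3%. With the A or T run genes left out, a setting chosen after seeing the data, the 10 leading genes held 12.6%. The 25 genes highest per length held 27.7%, and 30.3% by the median transcript length, which shared 19 of the 25 genes. At a mean of at least 10 CPM, 2297 genes were over 2-fold apart (4907 at 1 CPM).

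Leaving out each animal in turn gave a dispersion root of 0.0893 to 0.301, the lowest without replicate 3. The median pairwise correlation was 0.916 to 0.987 (0.960 with all), the count of genes over 2-fold apart 1101 to 4517 (scaling and the 1 CPM mean taken over the 3 remaining animals, where the 1281 given for replicates 1, 2 and 4 keeps those of all 4), and the median range of list levels 0.117 to 0.524 (0.531 with all), again at the end of least spread without replicate 3. The first 50% lay in 401 to 453 genes. No paired analysis was possible because 1 group was described and no groups were compared, so the replicate block had nothing to pair. With 4 animals, spread estimates are imprecise, and genes under about 1 CPM rest on a few counts a library.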
